A study of Rattus norvegicus with 48 samples.

Results

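The complement genes described here are 9 genes of the complement cascade and of its control, namely C1qa, C1qb, C1qc, C1s, C3, Cfi, Cd55, Cd59 and Serping1. They were taken by gene symbol from the 2 deposited count tables, and all 9 were found among the 32883 genes of each table. RNA was sequenced from the retina and from the tissue behind it (the posterior eye) of 24 female Long-Evans rats, an outbred pigmented strain, which gave 48 libraries. The 4 groups of 6 animals each were young OVX, young sham, aged OVX and aged sham. Ovariectomy (OVX) removes the ovaries and so most circulating oestrogen, and the sham animals kept their ovaries. The young rats were aged 3 to 4 months, and those called aged here, which the submitters describe as middle-aged, 9 to 10 months. The labels name no genetic change and no hormone treatment in any group, and each library came from 1 named animal. Animal numbers ran in order of group, so the order of handling and the group cannot be told apart.

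Complement is a set of secreted and membrane proteins that tag cells, debris and microbes for removal. In the classical pathway the recognition molecule C1q, built from A, B and C chains, binds its target and activates the proteases C1r and C1s, which leads to cleavage of C3 and then to assembly of the membrane attack complex. Serping1, the C1 inhibitor, blocks C1r and C1s. Cfi, complement factor I, cuts the active fragment of C3 with the help of cofactors, Cd55 speeds the decay of the enzymes that cleave C3, and Cd59 blocks the last step of the attack complex. In the retina C1q is made mainly by microglia, and complement marks synapses and outer segment debris for uptake, while the pigment epithelium and choroid behind it are sites of complement deposition in human macular degeneration.

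The start regions of C1qa and C1qb are shown because the levels of these neighbouring genes varied together between posterior eye libraries, as described further on. They come from RefSeq (build GRCr8), which held a promoter sequence for 5 of the 9 genes. Each line gives the 250 bases before the annotated start, 5′ to 3′ on the strand of the gene, at chr5:154419934-154420183 (minus strand) for C1qa and at chr5:154407828-154408077 (minus strand) for C1qb. The sequences are in lower case, and capitals mark GGAAGT and GAGGAA on either strand, spellings of the core bound by ETS factors such as the myeloid factor PU.1. GGAAGT was added to the search after the values were seen.
C1qa: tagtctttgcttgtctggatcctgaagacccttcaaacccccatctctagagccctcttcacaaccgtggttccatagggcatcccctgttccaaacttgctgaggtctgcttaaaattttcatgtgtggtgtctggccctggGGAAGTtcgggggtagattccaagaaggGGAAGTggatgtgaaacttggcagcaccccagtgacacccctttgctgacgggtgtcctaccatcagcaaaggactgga
C1qb: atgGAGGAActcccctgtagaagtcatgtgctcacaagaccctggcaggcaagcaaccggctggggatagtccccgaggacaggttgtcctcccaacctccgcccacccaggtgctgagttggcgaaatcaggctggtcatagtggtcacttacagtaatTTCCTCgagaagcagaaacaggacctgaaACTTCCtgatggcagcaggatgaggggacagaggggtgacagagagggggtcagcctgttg
GGAAGT occurred at 2 places in the C1qa window and at 1 place in the C1qb window, and in none of the windows of C3, Cfi and Cd55, against 19.2% of all 33469 RefSeq promoters of the same length. GAGGAA occurred at 2 places in C1qb and in none of the other 4 windows, against 23.3% of all promoters. The full oestrogen response element, GGTCA and TGACC with any 3 bases between them, was in none of the 5 windows and in 0.0239% of all promoters, while GGTCA alone occurred at 3 places in C1qb and at 1 place each in C3 and Cd55, against 35.4% of all promoters. A match of letters is a description of these windows and not a binding site.

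Posterior eye libraries held 11470945 to 22971367 counts and retina libraries 12916146 to 30737547. Levels are given as CPM, edgeR's counts relative to the TMM-scaled library size. Scaling was done over 48 libraries for the comparison of the tissues, and within each tissue for all other levels, marker lists included. The CPM of a gene therefore differs somewhat between these scales. Library preparation amplified full-length cDNA, so counts grow with transcript length and levels are compared here between groups and tissues for the same gene only. Posterior eye libraries differed in tissue makeup, since 13 rod genes averaged 1.69 to 9.86 log2 CPM in them, against 11.1 to 11.4 in retina libraries. In the posterior eye 10 sebaceous gland genes averaged 2.18 ± 0.98 log2 CPM in young OVX and 4.00 ± 2.31 in young sham (SD, n = 6 each). Retina libraries differed too, with 12 lens genes averaging 5.45 to 10.4 log2 CPM in them. Of a marker list of 20 macrophage and microglia genes, the 20 tested in the posterior eye averaged 3.71 to 4.86 log2 CPM per library, and the 18 tested in the retina 1.21 to 1.89, so these ranges cover different genes. In bulk tissue, fewer cells of a type and less RNA per cell cannot be told apart. The spread between animals, which edgeR estimates as a coefficient of variation, came to 33.4% for posterior eye and 12.0% for retina. At this depth 9 of 9 complement genes passed the filter on low counts in the posterior eye and 8 of 9 in the retina, where Cfi did not pass.

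All 9 complement genes were higher in the posterior eye than in the retina (adjusted p under 0.05 in edgeR's quasi-likelihood test over 17153 genes), where 93% of all genes differed and 47.8% were higher in the posterior eye. Cfi did not pass the filter in the retina and entered this fit through its posterior eye libraries. The filter thus favoured this direction for Cfi, which leaves 8 genes that passed in both tissues. With so many genes called, the sizes describe this comparison better than the count does. The largest difference among the 9 genes was that of C1s, which averaged 294 ± 55.7 CPM in posterior eye libraries and 7.49 ± 2.35 in retina libraries (SD, n = 24 each), 39.5-fold with an interval of 33.0 to 47.2. Its inhibitor Serping1 averaged 293 ± 46.04 CPM in posterior eye libraries and 24.5 ± 5.90 in retina libraries, which was 12.0-fold. For both genes the lowest posterior eye library lay above the highest retina library.

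The C1q chains were also higher in the posterior eye, but not by the same factor. C1qa averaged 66.5 ± 14.9 CPM in posterior eye libraries and 7.18 ± 1.05 in retina libraries, which was 9.25-fold (8.21 to 10.4). C1qb averaged 79.0 ± 17.9 CPM in posterior eye libraries and 8.09 ± 0.88 in retina libraries, which was 9.74-fold (8.64 to 11.0). C1qc averaged 91.0 ± 22.0 CPM in posterior eye libraries and 5.47 ± 0.99 in retina libraries, which was 16.6-fold (14.4 to 19.2). The interval of C1qc lay above those of its neighbours, and the ratio of the chains within each animal is given among the closing observations.

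C3, the central component on which all pathways converge, differed least, at 8.79 ± 3.57 CPM in posterior eye libraries and 5.60 ± 1.63 in retina libraries (log2 difference 0.64 ± 0.13 SE, 1.56-fold, adjusted p = 1.61e-05). It was the gene among the 9, apart from Cfi, whose libraries overlapped between the tissues. Among the regulators, Cd55 was 18.2-fold higher in the posterior eye, at a mean of 13.1 CPM there and 0.717 in the retina. Cd59 averaged 492 ± 92.2 CPM in posterior eye libraries and 138 ± 8.28 in retina libraries, which was 3.57-fold. Cfi, at a mean of 0.688 CPM in posterior eye libraries and 0.159 in retina libraries, was 5.20-fold higher (3.75 to 7.22), a direction that the filter favoured. The plot of both tissues shows these levels for every library.

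**Figure D1:**
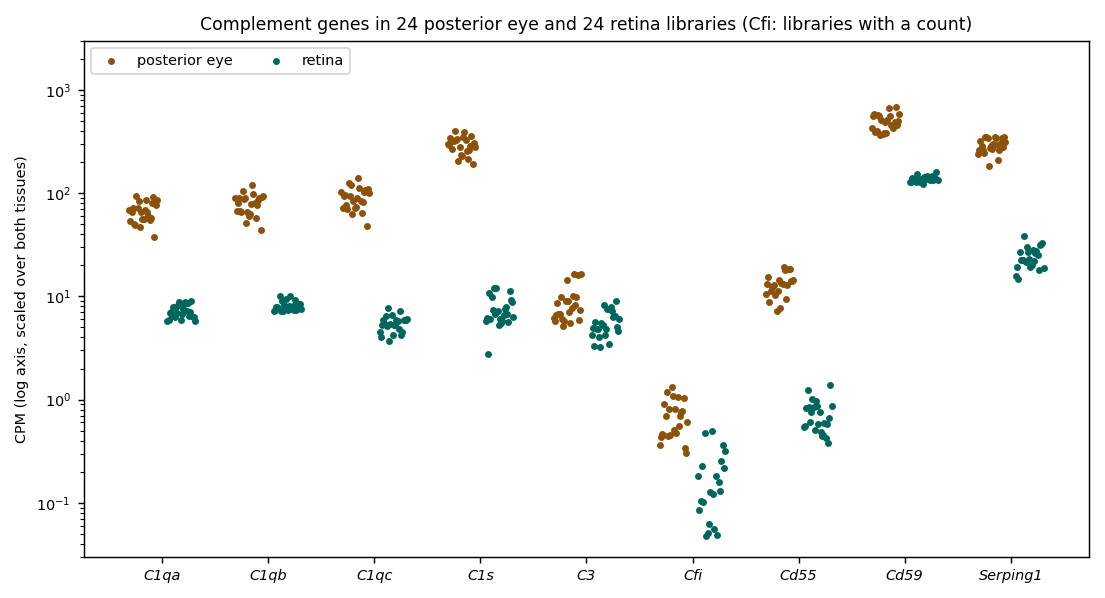
Level of each complement gene in the 24 posterior eye libraries and the 24 retina libraries, 1 point per library. The log axis gives CPM scaled over both tissues. The posterior eye points of C1s, Serping1, Cd55, Cd59 and the C1q chains lie above all retina points, those of C3 and Cfi overlap with them, and Cfi libraries with no count are not drawn.

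Ovariectomy changed no complement gene past the threshold in either tissue or at either age. Of the 8 genes tested in the retina, 0 were called in young animals, against 0.0194% of all 15481 genes tested, and 1 of 8 had an unadjusted p under 0.05, against 11.7% of all genes. In the aged retina 0 of 8 were called, against 0.00646% of all genes, and 0 of 8 had an unadjusted p under 0.05, against 6.47% of all genes. For the posterior eye 0 of 9 were called in young animals, against 0.0061% of the 16401 genes tested, and 0 of 9 in aged animals, where 0% of genes were called. No gene of the 9 had an unadjusted p under 0.05 there, against 6.24% of all genes in young animals and 2.57% in aged animals. Averaged over both ages, 0 of 8 were called in the retina, against 0.0517% of all genes, and 1 of 8 had an unadjusted p under 0.05, against 10.8%. The same average gave 0 of 9 called for the posterior eye, against 0%, and 0 of 9 at an unadjusted p under 0.05, against 5.72%. The CPM of OVX and sham libraries overlapped for each gene tested, whereas 1.46% of all genes did not overlap in the young retina, 0.291% in the aged retina, 0.238% in the young and 0.0976% in the aged posterior eye. DESeq2 and limma-voom also called 0 of the complement genes in each of these comparisons. DESeq2 gave no adjusted p for 7 of 8 genes in the retina averaged over both ages, and for 1 of 9 in the young posterior eye. It could not call those genes.

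The sign of the difference between OVX and sham was counted in each comparison. In the young retina the 8 genes tested all had a fitted log2 fold change above 0, with a median of 0.14, against 49.7% of all genes above 0 and a median of 0.00. This count rested on small values: under other processing or without 1 animal the lowest log2 differences were -0.01 for C1qb, -0.08 for C1qc, -0.04 for C1s and -0.03 for C3, and Cfi, which did not pass the filter, ran the other way at -2.72 in a fit without it. In the aged retina 5 of 8 were above 0, with a median of 0.02, against 49.8% of all genes. Young animals had 6 of 9 above 0 in the posterior eye, with a median of 0.13, against 47.2% of all genes, and aged animals had 5 of 9, with a median of 0.06, against 51%. Genes that moved together between libraries, as several of these did, are not separate observations of a direction.

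**Figure D2:**
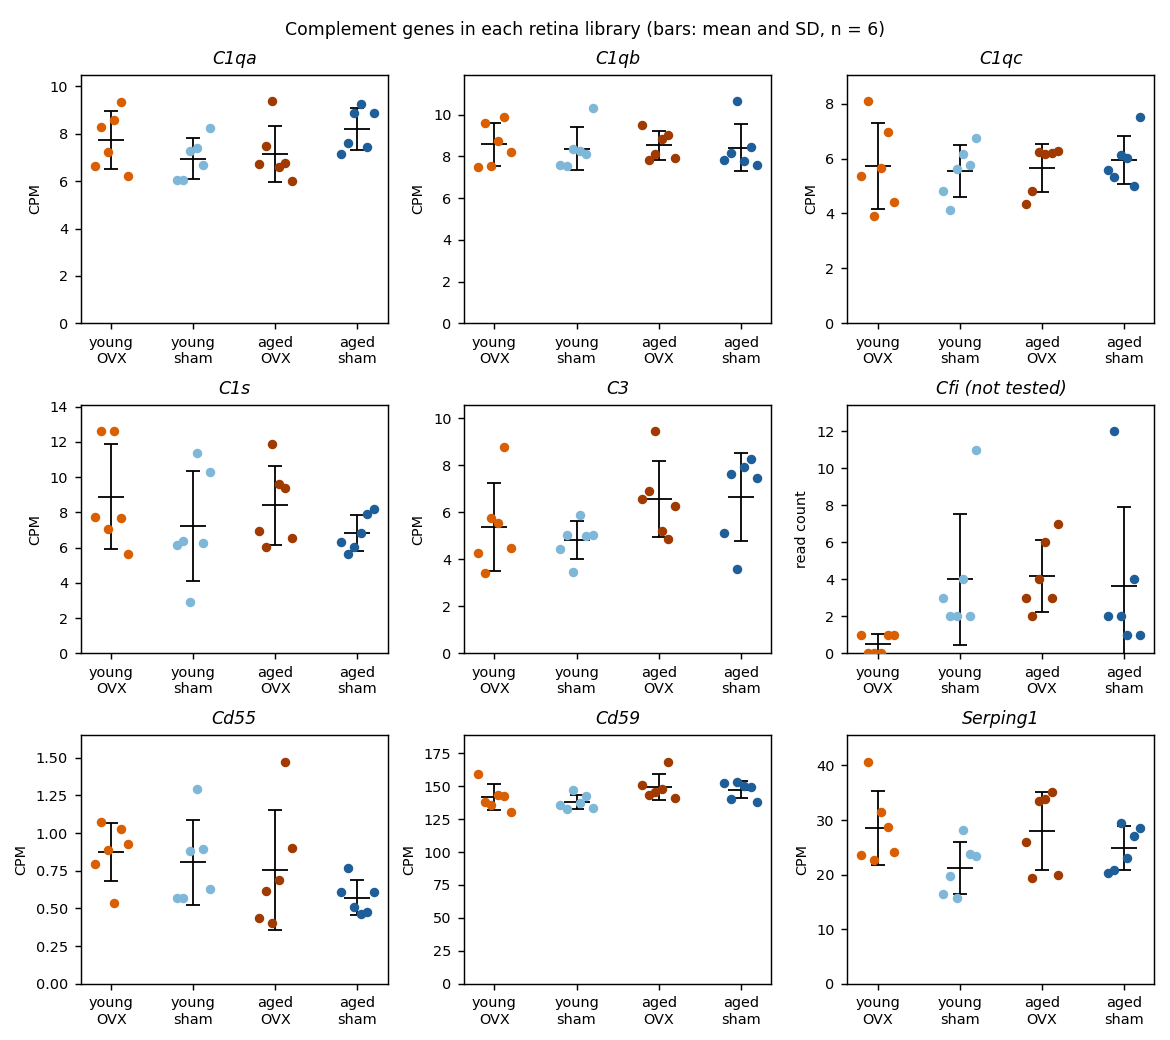
Levels of the 9 complement genes in each retina library, by group, in CPM with the mean and SD of 6 animals, and as read counts for Cfi. The groups overlap for the 8 genes tested, while the young OVX libraries of Cfi hold 0 or 1 count each.

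In the retina C1qb and C1qc had nearly level means over the 4 groups, while those of C1qa ran from 6.96 CPM in young sham to 8.20 in aged sham. The log2 difference of C1qa between aged and young sham was 0.23 ± 0.11 (SE), with an unadjusted p of 0.0514 and an adjusted p of 0.473. C1qa ranged from 6.22 to 9.36 CPM with a median of 7.77 in young OVX, and from 6.04 to 8.24 with a median of 6.99 in young sham. It ranged from 6.01 to 9.38 CPM with a median of 6.75 in aged OVX, and from 7.15 to 9.24 with a median of 8.25 in aged sham. The groups overlapped, and the median was higher with OVX in young animals and lower with OVX in aged animals. The log2 difference between OVX and sham was -0.20 ± 0.12 (SE) in aged animals and 0.15 ± 0.11 in young animals. The difference between these, tested as an interaction, was -0.35 ± 0.16 with an unadjusted p of 0.0429 and an adjusted p of 0.788. C1qb had a log2 difference of 0.03 ± 0.10 in young animals, with a 95% interval of -0.17 to 0.23, and of 0.02 ± 0.10 in aged animals. C1qc had one of 0.05 ± 0.16 in young animals and of -0.07 ± 0.16 in aged animals.

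Posterior eye levels of the C1q chains spread more widely between animals and overlapped between groups at both ages. C1qa ranged from 44.8 to 87.3 CPM with a median of 66.4 in young OVX, and from 46.3 to 68.99 with a median of 55.96 in young sham. In aged animals it ranged from 36.1 to 84.8 CPM with a median of 73.7 with OVX, and from 53.2 to 79.4 with a median of 59.9 in sham. The log2 differences were 0.22 ± 0.18 in young animals and 0.12 ± 0.18 in aged animals. For C1qb they were 0.00 ± 0.19 and -0.05 ± 0.19, and for C1qc 0.13 ± 0.20 and -0.04 ± 0.20, in young and aged animals in that order. Animal 22 of the aged OVX group was the lowest of its group for C1qb, at 42.4 CPM against 75.2 to 88.0 in the other 5 animals.

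**Figure D3:**
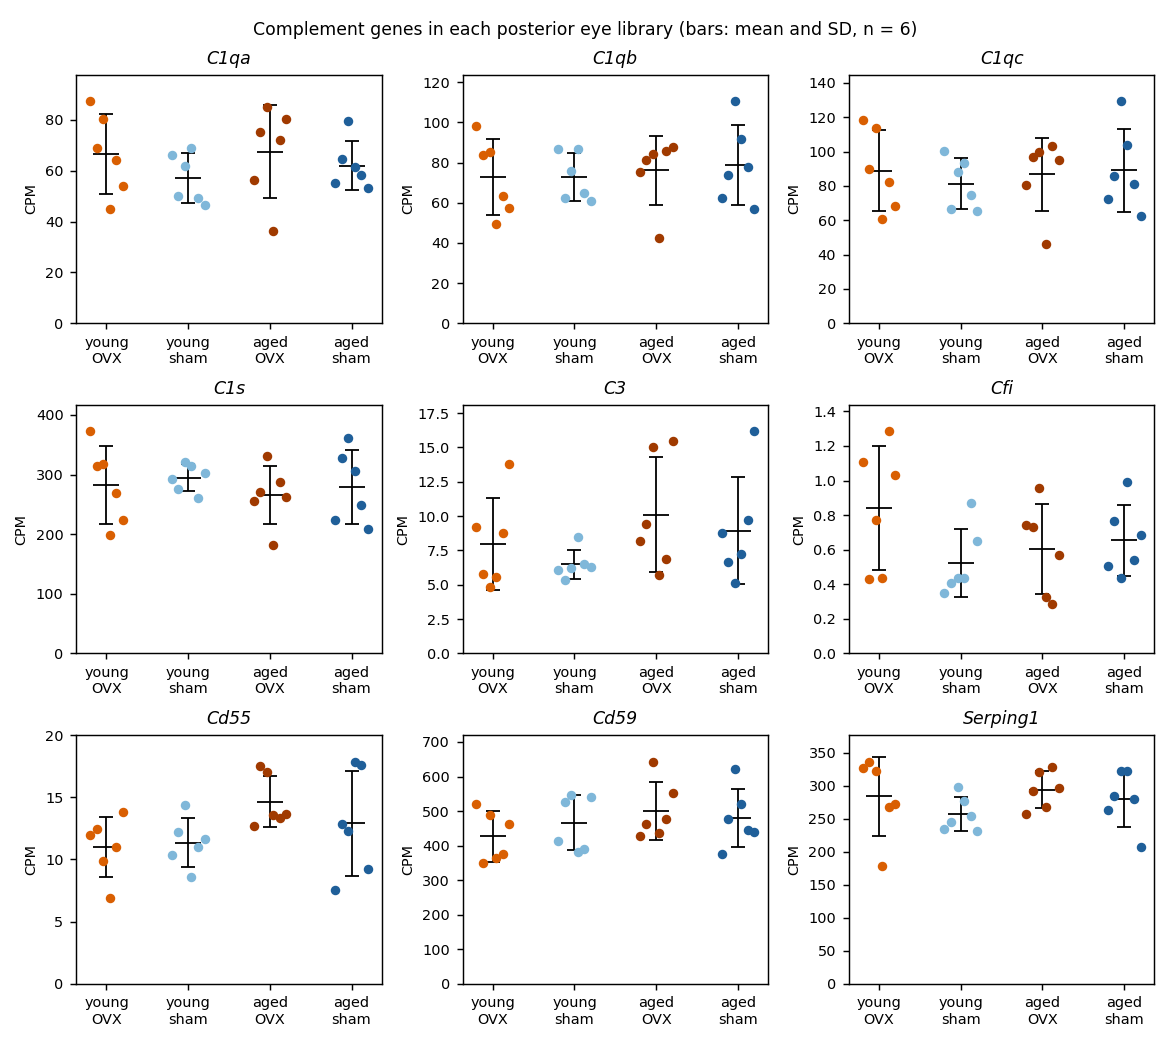
Levels of the 9 complement genes in each posterior eye library, by group, in CPM with the mean and SD of 6 animals. The groups overlap for all 9 genes, and the spread within a group is wide for C3 and Cfi.

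C1s, the protease of the C1 complex, had higher medians with OVX in the retina at both ages. C1s ranged from 5.63 to 12.6 CPM with a median of 7.71 in young OVX, and from 2.93 to 11.4 with a median of 6.33 in young sham. It ranged from 6.04 to 11.9 CPM with a median of 8.18 in aged OVX, and from 5.67 to 8.21 with a median of 6.58 in aged sham. The groups overlapped at both ages. The log2 difference was 0.29 ± 0.24 in young animals, with an adjusted p of 0.689, and 0.29 ± 0.24 in aged animals, at 0.89. The young value was -0.04 with the level of macrophage and microglia genes as a covariate, and ranged up to 0.46 over the other alternatives. The differences of C1s in the posterior eye were -0.06 ± 0.15 in young animals and -0.07 ± 0.15 in aged animals.

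Among the genes that passed the filter, Serping1 had the smallest adjusted p for OVX. In the young retina it ranged from 22.8 to 40.7 CPM with a median of 26.5 with OVX, and from 15.7 to 28.2 with a median of 21.5 in sham. Of the 6 sham libraries, 3 lay below the lowest OVX library, and the others overlapped with the OVX group. The log2 difference was 0.43 ± 0.17, with a 95% interval of 0.08 to 0.78, an unadjusted p of 0.0188 and an adjusted p of 0.336. It was 0.30 without young OVX animal 8, the highest library, at an unadjusted p of 0.0836. In the aged retina Serping1 ranged from 19.4 to 35.2 CPM with a median of 29.7 with OVX, and from 20.3 to 29.5 with a median of 25.0 in sham, a log2 difference of 0.16 ± 0.17. The mean over both ages was 0.30 ± 0.12 at an unadjusted p of 0.0211 and an adjusted p of 0.349. The interaction of OVX with age was -0.26 ± 0.24, so a difference between the ages was not shown.

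Levels of some marker lists were also higher in young OVX than in young sham retinas. The mean of the 18 macrophage and microglia genes tested was 1.65 ± 0.14 log2 CPM in young OVX and 1.46 ± 0.19 in young sham (SD, n = 6 each), and their summed level was 117 to 155 CPM in young OVX and 114 to 129 in young sham. No gene of the whole list was at 0 in every library. Outside this list, C1qa differed by 0.15 ± 0.11, C1qb by 0.03 ± 0.10 and C1qc by 0.05 ± 0.16 log2 units between these groups. Itgam, a chain of complement receptor 3 also outside the list, ran the other way at -0.69 ± 0.21, with an adjusted p of 0.200. With the mean of the macrophage and microglia list as a covariate the Serping1 difference was 0.25 ± 0.17, at an unadjusted p of 0.156. The 14 pigment epithelium genes averaged 4.79 ± 0.26 log2 CPM in young OVX and 4.22 ± 0.28 in young sham, and with their level as a covariate the Serping1 difference was 0.44 ± 0.21. The 8 melanocyte genes tested averaged 2.31 ± 0.33 log2 CPM in young OVX and 1.68 ± 0.33 in young sham, and were not used as a covariate. Over the deviations of the 24 retina libraries from their group means, Serping1 had r of -0.00058 with the pigment epithelium list. It had r of 0.797 with the Müller glia and astrocyte list, which averaged 7.75 ± 0.08 log2 CPM in young OVX and 7.79 ± 0.11 in young sham. In the aged retina the pigment epithelium list averaged 3.88 ± 0.26 with OVX and 4.70 ± 0.42 in sham. The part of these cells in the Serping1 value was otherwise not tested. Posterior eye levels of Serping1 ranged from 178 to 337 CPM in young OVX and from 232 to 299 in young sham, with a log2 difference of 0.14 ± 0.13. In aged animals it ranged from 257 to 329 CPM with OVX and from 207 to 322 in sham, with a log2 difference of 0.07 ± 0.13.

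Cfi, the protease that inactivates cleaved C3, was too low in the retina for the filter, and its values there are read counts. The 6 young OVX libraries held 0 to 1 count, with a median of 0.5 and a sum of 3, and the 6 young sham libraries held 2 to 11 counts, with a median of 2.5 and a sum of 24. These groups did not overlap. The CPM of 1.46% of the genes that passed the filter did not overlap either, but no share was computed for genes as low as Cfi. Aged OVX libraries held 2 to 7 counts with a sum of 25, and aged sham libraries held 1 to 12 with a sum of 22. Summed over libraries and relative to depth, the ratio of OVX to sham was 0.121 in young animals, with an exact 95% interval of 0.0234 to 0.400, and 1.29 in aged animals, with one of 0.697 to 2.40. These intervals cover counting error only, and reads amplified without molecular identifiers are not independent molecules.

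When the filter was dropped, Cfi in the young retina had a fitted log2 difference of -2.72 ± 0.72 between OVX and sham, at an unadjusted p of 0.000751 and an adjusted p of 0.217 over all genes with a count. Between aged OVX and young OVX the value was 3.01 ± 0.72, at an adjusted p of 0.135, and the interaction of OVX with age was 3.14 ± 0.90, at an adjusted p of 0.545. None of these passed the threshold, and the choice to describe them was made after their values were seen. Cfi was tested in the posterior eye, where it ranged from 0.429 to 1.28 CPM with a median of 0.901 in young OVX and from 0.353 to 0.870 with a median of 0.438 in young sham. These groups overlapped, with the OVX group higher, and the log2 difference was 0.64 ± 0.33 with an adjusted p of 0.843. In aged animals the difference was -0.10 ± 0.34.

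The OVX effect, averaged over both ages, differed between the tissues for 0 of the 9 genes past the threshold, against 0.00583% of all genes. Cfi had the smallest p, with an effect 1.44 ± 0.48 log2 units higher in the posterior eye than in the retina, at an unadjusted p of 0.00481 and an adjusted p of 0.801. With the animal as a block it was 1.33 ± 0.47, at an adjusted p of 0.938. Cfi was the 1 of 9 genes with an unadjusted p under 0.05, against 4.94% of all genes. It did not pass the filter in the retina and entered this fit through its posterior eye libraries. Its retina counts summed to 3 in young OVX and 24 in young sham, and to 25 in aged OVX and 22 in aged sham. The retina part of this average therefore came from the young groups and rests on few counts.

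Among the genes that passed the filter, C3 had the largest difference by age in the retina. It ranged from 3.61 to 8.27 CPM with a median of 7.54 in aged sham, and from 3.48 to 5.89 with a median of 5.02 in young sham. It ranged from 4.89 to 9.45 CPM with a median of 6.43 in aged OVX, and from 3.43 to 8.77 with a median of 5.02 in young OVX. The groups overlapped under both kinds of surgery, with higher medians in aged animals. The log2 difference was 0.48 ± 0.21 in sham animals, with an unadjusted p of 0.0299 and an adjusted p of 0.404, and 0.29 ± 0.21 in OVX animals. Posterior eye C3 ranged from 5.11 to 16.2 CPM in aged sham and from 5.35 to 8.46 in young sham, with a log2 difference of 0.46 ± 0.29. The OVX groups gave 5.71 to 15.5 CPM in aged animals and 4.87 to 13.8 in young animals, with one of 0.34 ± 0.29. For OVX against sham, C3 had log2 differences of 0.16 ± 0.21 in the young retina and -0.03 ± 0.21 in the aged retina, and of 0.30 ± 0.29 and 0.18 ± 0.29 in the young and aged posterior eye.

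No complement gene was called between ages. In the retina 0 of 8 were called between aged and young sham animals, against 0.0388% of all genes, and 1 of 8 had an unadjusted p under 0.05, against 10.7%. Between aged and young OVX animals 0 of 8 were called, against 0.0711%, and 0 of 8 had an unadjusted p under 0.05, against 9.23%. For the posterior eye 0 of 9 were called in either comparison, where 0% of genes were called, and the counts at an unadjusted p under 0.05 were 0 of 9 for sham and 1 of 9 for OVX animals, against 2.93% and 10.1% of all genes. For the interaction of OVX and age 0 of 8 were called in the retina, against 0.0452%, and 1 of 8 had an unadjusted p under 0.05, against 6.21%. The interaction in the posterior eye gave 0 of 9 called, against 0%, and 0 of 9 at an unadjusted p under 0.05, against 2.97%. Aged and young libraries overlapped for each gene tested, whereas the share of all genes without overlap was 0.633% for sham and 0.743% for OVX animals in the retina, and 0.128% and 0.616% in the posterior eye. DESeq2 and limma-voom called none of the 9 in these comparisons, though DESeq2 gave no adjusted p for 1 gene between aged and young sham retinas.

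The membrane regulators Cd55 and Cd59 had no call for age in either tissue. Cd55 in the posterior eye ranged from 12.7 to 17.5 CPM with a median of 13.6 in aged OVX, and from 6.90 to 13.8 with a median of 11.4 in young OVX. These groups overlapped narrowly, and the log2 difference was 0.41 ± 0.19, with an unadjusted p of 0.0408 and an adjusted p of 0.464. In sham animals the same comparison gave 0.18 ± 0.19, and in the retina the age differences of Cd55 were -0.24 ± 0.27 with OVX and -0.47 ± 0.28 in sham. Cd59 was the steadiest gene in the retina, at 141 to 169 CPM in aged OVX, 131 to 159 in young OVX, 138 to 153 in aged sham and 133 to 147 in young sham. Its age differences in the retina were 0.08 ± 0.05 with OVX and 0.09 ± 0.05 in sham on the log2 scale. For OVX against sham, Cd59 differed by 0.04 ± 0.05 in the young retina and 0.02 ± 0.05 in the aged retina, with 95% intervals of -0.06 to 0.13 and -0.07 to 0.12. The OVX differences of Cd59 in the posterior eye were -0.13 ± 0.14 and 0.06 ± 0.14, and those of Cd55 were -0.05 ± 0.19 and 0.18 ± 0.19, in young and aged animals in that order.

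A contrast of aged against young animals averaged over sham and OVX was added after the values were seen. In the retina 0 of 8 complement genes were called, against 0.736% of all genes, and 2 of 8 had an unadjusted p under 0.05, against 12.9%. These were C3, with a log2 difference of 0.38 ± 0.15 and an adjusted p of 0.233, and Cd59, with one of 0.09 ± 0.03 and an adjusted p of 0.234. The posterior eye had 0 of 9 called, against 0.0488% of all genes, and 1 of 9 with an unadjusted p under 0.05, against 8.9%. Cd55 had a log2 difference of 0.30 ± 0.13 there with an adjusted p of 0.527, and C3 one of 0.40 ± 0.20 with an adjusted p of 0.588. The values of C3 in the tissues lay within 1 SE of each other, and neither passed the threshold.

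**Figure D4:**
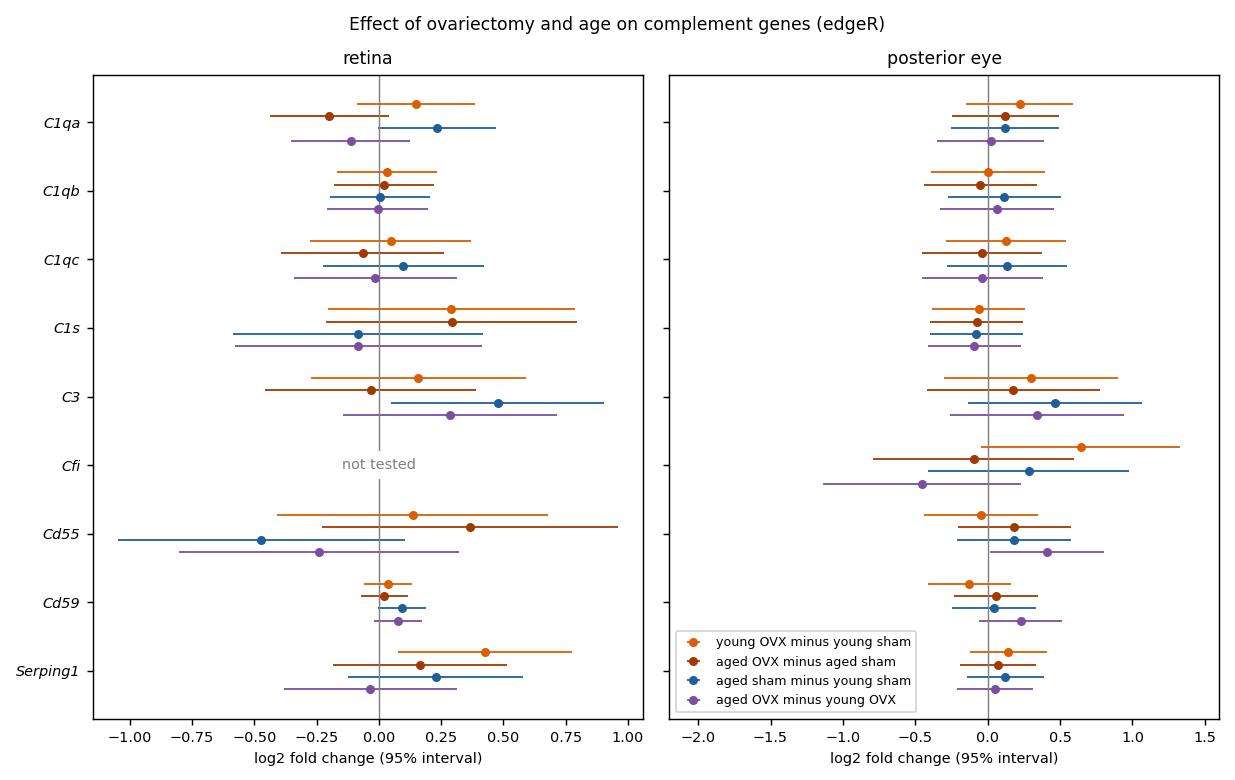
Log2 fold changes of the complement genes with 95% intervals from edgeR, in the retina and in the posterior eye, for OVX against sham at each age and for aged against young animals under each surgery. Intervals exclude 0 for Serping1 in the young retina with OVX, for C3 in the aged sham retina and for Cd55 in the aged OVX posterior eye, none of which passed after adjustment, and Cfi has no retina value because it did not pass the filter.

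The other genes of the complement system gave the setting. A list of 50 further genes held 49 that were in the tables, of which 29 were tested in the retina and 36 in the posterior eye. None of them was called for OVX, for age within a surgery group or for the interaction, in either tissue. The shares of all genes called in these comparisons are those given above. The smallest p for OVX in the young retina belonged to Itgam, the alpha chain of complement receptor 3, with a log2 difference of -0.69 ± 0.21 (adjusted p = 0.200). In the young posterior eye it belonged to C2, the protease that joins C4 in the classical C3 convertase, at 0.37 ± 0.17 with an adjusted p of 0.785. For age averaged over both surgeries, the contrast added after the values were seen, 1 of 29 was called in the retina, against 0.736% of all genes. This was Sez6l2, a neuronal membrane protein with complement control domains, at 0.15 ± 0.03 with an adjusted p of 0.0428. C4a and C4b are near-identical copies whose reads the counting may split, so their values are uncertain.

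Of the 37 listed genes that passed the filter in the fit over both tissues, 25 were higher in the posterior eye and 9 were lower, where 93% of all genes were called and 47.8% were higher in the posterior eye. C1rl, C6, Cr2, C3ar1, C5ar1, Itgax, Fcna and Fcnb passed the filter in the posterior eye alone, and C4bpa in the retina alone. C6 averaged 7.11 CPM in posterior eye libraries and 0.0371 in retina libraries. For such genes the filter favoured the direction found, so the split of 25 to 9 is a description only. C1r, the protease partner of C1s, was higher by 4.08 ± 0.11 on the log2 scale and averaged 245 CPM in the posterior eye. C7, a part of the attack complex, was higher by 6.30 ± 0.12. Sez6l2 was lower by -3.25 ± 0.38 and Susd4, a complement inhibitor of neural tissue, by -1.62 ± 0.10.

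Levels of the C1q chains varied together between posterior eye libraries of the same group. Each library was taken as its deviation from its group mean in log2 CPM, and correlations over the 24 libraries were tested by permutation within groups and adjusted over the 36 pairs of complement genes. C1qb and C1qc had a Pearson r of 0.976 (Spearman rho 0.960) and C1qa and C1qc one of 0.940 (rho 0.908), both at a p of 1e-05, the smallest the permutations can give, and an adjusted p of 7.2e-05. Without the 2 libraries farthest from the median, r was 0.962 and 0.901. C1s followed the C1q chains, with r of 0.851 with C1qa (rho 0.805, adjusted p = 7.2e-05) and 0.882 with C1qb (rho 0.816, adjusted p = 0.00012). Serping1 had r of 0.776 with C1s (rho 0.811, permutation p = 3e-05, adjusted p = 0.000154), and 0.755 without the 2 farthest libraries. In all, 12 of 36 pairs passed the threshold, and the pairs of C3 with the C1q chains did not, with r from -0.068 to 0.172. The C1q genes adjoin each other on chromosome 5 in the RefSeq annotation, in the order C1qb, C1qc, C1qa, and C1r lies next to C1s on chromosome 4.

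The same libraries differed in their content of macrophage, fibroblast and rod RNA, and these levels moved with the complement genes. The macrophage and microglia list, which holds no C1q gene, had r of 0.947 with C1qa (rho 0.926), 0.859 with C1qb (rho 0.788) and 0.850 with C1qc (rho 0.803), each at a p of 1e-05 and, over 63 pairs of genes and lists, an adjusted p of 0.000157. Without the 2 farthest libraries these r values were 0.900, 0.750 and 0.746. The fibroblast list had r of 0.816 with C1s (rho 0.777, adjusted p = 0.000504) and 0.819 with Serping1 (rho 0.817, adjusted p = 0.000525). The lists did not separate these genes, since C1s had r of 0.820 (rho 0.783) and Serping1 of 0.716 (rho 0.729) with the macrophage list, and the C1q chains had r of 0.731 to 0.754 (rho 0.630 to 0.702) with the fibroblast list, all past the threshold. The list of Müller glia and astrocyte genes had r of -0.659 with C1s (rho -0.649, adjusted p = 0.0142) and -0.618 with Cd59 (rho -0.570, adjusted p = 0.00836). That list averaged 6.12 to 8.15 log2 CPM in posterior eye libraries, against 7.60 to 7.93 in retina libraries. Which of its genes carried this level in the posterior eye was not tested. The pigment epithelium list had r of -0.602 with Cd59 (rho -0.503, adjusted p = 0.0113). The rod list also ran the other way, with r of -0.611 with C1s (rho -0.703, adjusted p = 0.0225), -0.636 with Cd59 (rho -0.650, adjusted p = 0.0112) and -0.638 with Serping1 (rho -0.696, adjusted p = 0.0134). These values share the library and its scaling, so they describe libraries and say nothing of control between genes.

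**Figure D5:**
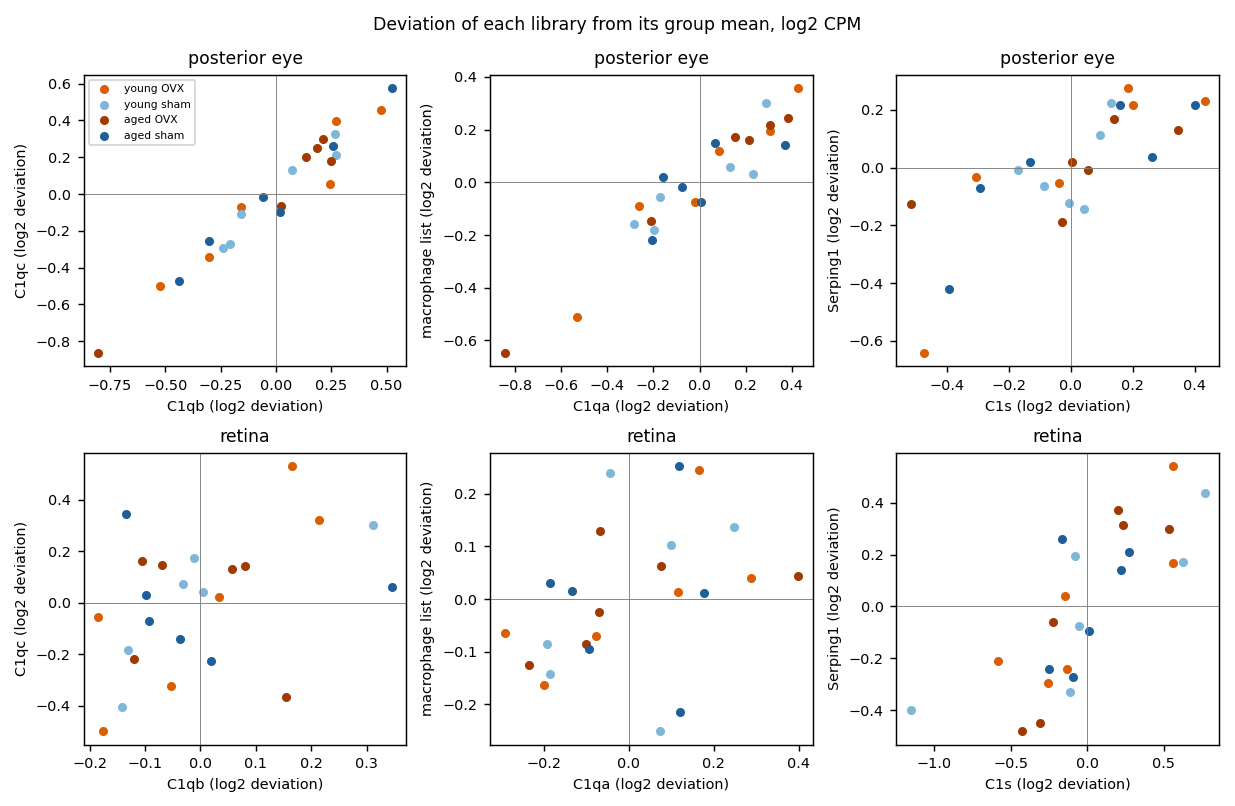
Deviation of each library from its group mean in log2 CPM, for C1qc against C1qb, the macrophage list against C1qa and Serping1 against C1s, in both tissues, 1 point per library coloured by group. The posterior eye points of C1qb and C1qc lie close to a line (r of 0.976). Their retina points, which come from lower counts, scatter more widely, and C1s and Serping1 vary together in both tissues.

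The C1q chains had lower r values in the retina, where their counts were also lower. Retina libraries held 87 to 228 counts of C1qa, 114 to 237 of C1qb and 67 to 158 of C1qc. Posterior eye libraries held 551 to 1659, 646 to 2291 and 702 to 2682 in that order. Counting error is a larger part of the spread at low counts, and its share in the lower r was not tested. The C1q pairs had r of 0.442 for C1qa with C1qb (rho 0.465, adjusted p = 0.161 over 28 pairs) and 0.573 for C1qa with C1qc (rho 0.562, adjusted p = 0.0694), and C1qa had r of 0.394 with the macrophage list (rho 0.511, adjusted p = 0.233 over 56 pairs). The pair of C1s and Serping1 was the 1 of 28 that passed, with r of 0.780 (rho 0.776, adjusted p = 0.0014). Both had positive r with the list of Müller glia and astrocyte genes, with r of 0.822 for C1s (rho 0.851, adjusted p = 0.00056) and 0.797 for Serping1 (rho 0.737, adjusted p = 0.00112). Within that list the likeness rested on some genes, since Cp, the ferroxidase ceruloplasmin, had r of 0.814 with C1s and 0.916 with Serping1, while Slc1a3, a glutamate transporter of Müller glia, had r of 0.080 and -0.164 and Kcnj10, a potassium channel, -0.168 and -0.320. Deviations in the posterior eye were set against those in the retina of the same animal for the 8 genes tested in both, with 0 of 8 past the threshold and the highest r at 0.392 for C3.

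Over all genes tested, those most like each complement gene were ranked by r over the same 24 deviations. For C1s they included C1r in both tissues, with r of 0.955 in posterior eye libraries and 0.883 in retina libraries. C1r ranked first in the posterior eye, while in the retina Foxi3 stood above it with r of 0.899 and Wfikkn2 close below with 0.882. The closest to Serping1 were Tmem176b and Cp in the retina, both with r of 0.916, and Axl, a receptor tyrosine kinase, in the posterior eye, with r of 0.938. C1qa was closest to C1qc and C1qb in the posterior eye and then to Alox5ap, with r of 0.910, whereas in the retina its closest gene, Kank3, reached r of 0.696. Cd59 was closest to Tmprss4 and P2ry2 in the posterior eye, with r of 0.942 and 0.936. C3 and Cfi had no close neighbour in the posterior eye, where their highest r values were 0.623 and 0.671.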

How the data were processed

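RNA was sequenced from retina and posterior eye of 24 rats. Per the labels' protocols, full-length cDNA was amplified with SMART-Seq v4 and made into libraries with Nextera XT, which marks no strand. The authors deposited raw read counts per gene, 1 table per tissue. The submitters' processing notes name STAR 2.7.3a, HTSeq, DESeq2 and the build Rnor_6.0, without their roles. How reads were counted, and with which annotation, is not given in the sources used, so overlapping genes, and near-identical copies such as the annotated C1s pseudogene, may share reads. Of the posterior eye gene names, 25 had become dates and are not named.

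Counts were filtered with filterByExpr, scaled by TMM and tested with edgeR 4.0.16 (R 4.3.3), the quasi-likelihood F test, with 1 mean per group over the 24 libraries of a tissue, or with 8 means over 48 libraries between tissues. P-values are two-sided and adjusted by the Benjamini-Hochberg method over all genes tested, 15481 in the retina, 16401 in the posterior eye and 17153 in both, and genes with an adjusted p under 0.05 are called. Standard errors are approximate, from the log2 fold change and the square root of F. Alternatives were DESeq2 1.42.0, its size factors, limma-voom (limma 3.58.1), no filter, marker levels as covariates, the compared groups alone and leaving out each animal. Scripts were tested on simulated data.

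The same animal gave both tissues, per the labels. Deviations of the same animal in both tissues had a median r of 0.051 over 13127 genes, against 0.0018 for different animals, and 8 of 24 animals matched themselves best. The complement genes, the marker lists and the naming rule were chosen with earlier results of these data known. Every complement gene was named, with the 3 other complement genes of smallest p per contrast and the 3 most alike genes as candidates, some of which are not reported here.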

Additional observations from a re-analysis of the deposited data

Results flagged for a closer look

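Within groups of 6 libraries, 5 of 68 groups held a library whose gap to the nearest of the others exceeded Dixon's 95% critical value, and chance gives about 1 in 20. C1qb was at 42.4 CPM in the posterior eye of aged OVX animal 22, against 75.2 to 88.0 in the other 5 animals. In the retina C1qb was at 10.6 CPM in aged sham animal 15, against 7.60 to 8.46 in the others, and at 10.3 CPM in young sham animal 6, against 7.52 to 8.33. C3 was at 8.46 CPM in the posterior eye of young sham animal 4, against 5.35 to 6.48. Cd59 was at 168.7 CPM in the retina of aged OVX animal 23, against 140.9 to 151.0.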

How the results depend on the processing

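No call of a complement gene was gained or lost under any alternative run, in either tissue. For the comparison of tissues, 9 of 9 genes were called in every fit, and the log2 difference of C3 ranged from 0.57 to 0.67. Cfi entered the filtered fits through its posterior eye libraries. With the animal as a replicate block, which pairs the tissues of an animal, C3 was higher by 0.61 in the posterior eye and 9 of 9 genes were called. For OVX and age, the count of called complement genes was 0 in every fit, also when each animal was left out in turn (0 to 0). The adjusted p of Serping1 in the young retina ranged from 0.244 to 0.801 and its log2 difference from 0.25 to 0.52. That of C3 between aged and young sham retinas ranged from 0.270 to 0.703 in adjusted p and from 0.36 to 0.60 in log2 difference. Over all genes, counts depended on the tool: for the young retina 3 genes were called for OVX by edgeR, 62 by DESeq2 and 3 by limma-voom, and in the posterior eye 1, 12 and 1. Averaged over both ages the counts were 8, 51 and 9 in the retina and 0, 29 and 0 in the posterior eye. DESeq2 gave no adjusted p for 7 complement genes in the retina in that contrast, and so could not call them. The same held for 1 gene between aged and young sham retinas and for 1 gene between young OVX and young sham posterior eyes. The macrophage level as a covariate gave 5 of 9 complement genes an unadjusted p under 0.05 for age averaged over surgeries in the posterior eye, against 1 of 9 without it, and 0 of 9 called. Over all 16401 genes these counts were 1715 with the covariate and 1459 without it. Cfi in the retina had 0 to 12 counts per library. What limits the calls in each tissue was not tested.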

Other observations

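The ratio of C1q chain counts differed between the tissues of the same animal, a comparison chosen after its values were seen. The count ratio of C1qc to C1qb was 1.15 ± 0.075 in the posterior eye, from 1.04 to 1.33, and 0.677 ± 0.114 in the retina, from 0.457 to 0.987 (SD, n = 24 animals). It was higher in the posterior eye in 24 of 24 animals, by 0.78 ± 0.27 on the log2 scale (SD), with a permutation p of 1e-05, the smallest these permutations can give. The ratio of C1qc to C1qa was 1.37 ± 0.13 for posterior eye and 0.766 ± 0.123 for retina, and was also higher in 24 of 24 animals. The ratio of C1qa to C1qb was 0.847 ± 0.091 for posterior eye and 0.891 ± 0.132 for retina, higher in 8 of 24 animals, with a permutation p of 0.155. Depth cancels within a library. Transcript length cancels between tissues only if both use the same transcript forms with like coverage, which was not tested. Overlap of C1qc reads with other transcripts was not tested.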
